A study of Mus musculus with 55 samples.

Results

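The 7 Ugt2 genes and 2 Ugt3 genes examined here encode glycosyltransferases of the liver, and were chosen by their symbols: Ugt2a3, Ugt2b1, Ugt2b5, Ugt2b34, Ugt2b35, Ugt2b36, Ugt2b38, Ugt3a1 and Ugt3a2. They are 9 of the 37620 genes in the deposited tables. The study sequenced polyadenylated RNA from the livers of 55 untreated mice of 29 lines of the Collaborative Cross (CC), a panel of recombinant inbred mouse lines derived from several inbred founder strains, so that line mates carry nearly the same genome. The groups are the lines themselves, named by their IL numbers, with 1 mouse in 8 lines, 2 mice in 16 lines and 3 mice in 5 lines. All mice were male by the paper's account and were housed in the same facility with free access to chow. They were 8 to 11.9 weeks old and weighed 12.8 to 38 g, and no line serves as a control. Levels are given as FPKM, fragments scaled to transcript length and to the library of the mouse, so that genes of different length can be compared.

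Most UDP-glucuronosyltransferases attach glucuronic acid, taken from UDP-glucuronic acid, to steroids, bile acids, bilirubin and drugs, which makes these molecules water-soluble and ready for bile or urine. They are anchored in the endoplasmic reticulum, and hepatocytes are the main site of the Ugt2b enzymes. The human enzymes of the UGT3 family use other sugar donors, N-acetylglucosamine or glucose and xylose.

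Depth was between 20.5 M and 33.95 M estimated fragments per mouse (median 27.7 M, where M stands for mega). The tissue label held: the 6 hepatocyte markers, led by albumin, summed to 30168 to 69264 FPKM per line, while the lists for Kupffer cells (3 of 4 markers found), sinusoidal endothelium, stellate cells, bile duct and lymphocytes summed to at most 180, 47.3, 117, 8.85 and 4.71 FPKM. Kidney markers summed to at most 0.505 FPKM. The intestine list, whose members the liver also expresses in part, summed to 43.0 to 165 FPKM, and the pancreas list to between 0 and 116 FPKM, highest in IL-3575. The Y-linked gene Ddx3y was found in every mouse (5.49 to 19.0 FPKM). Xist was at 39.5 FPKM in mouse 3 of IL-785 and at most 0.12 FPKM in the other 54 mice. Why this mouse of a male series had Xist was not tested, and it was kept in IL-785. By correlation of the whole profile, the nearest mouse was from the same line for 42 of 47 mice in lines of 2 or 3. In IL-1052 and IL-2750 this held for 1 of 5 mice, and the other 4 were each closest to a mouse of the other of these lines. The second mouse of IL-2146 was closest to IL-1141. The tests among lines, isoform tests, pair count, covariate fits and intraclass correlation were repeated without IL-1052 and IL-2750, and separately without IL-2146. Levels, ranges, spreads within lines, the order of lines, the sets of Ugt3a2 mice and the correlations within lines include these lines throughout.

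The 7 Ugt2 genes lie together on chromosome 5 of the mouse genome (NCBI build 37, mm9) between Ugt2b34 (chr5:87318792-87335962) and Ugt2b38 (chr5:87838967-87853228). From left to right between these follow Ugt2b1 (chr5:87345663-87355555), Ugt2b35 (chr5:87429885-87442299), Ugt2b36 (chr5:87494952-87521580), Ugt2b5 (chr5:87553981-87569365) and Ugt2a3 (chr5:87753997-87766220). Ugt2b35 is on the plus strand and the other Ugt2 members are on the minus strand. Ugt3a1 (chr15:9209584-9244787) and Ugt3a2 (chr15:9265305-9300710) are neighbours on the plus strand of chromosome 15.

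The members differ widely in how alike their coding sequences are, which matters because the deposited values share out fragments that match several genes. The longest coding sequences of Ugt2b5 and Ugt2b38 were identical at 95.1% of positions, and those of Ugt3a1 and Ugt3a2 at 93.3%. Ugt2b5, Ugt2b35 and Ugt2b36 were 85.9% to 88.3% identical to each other, and Ugt2b1 was between 71.2% and 74.6% identical to the other Ugt2b members. Between a Ugt2 and a Ugt3 member the identity was 50.5% to 52.8%. Of the stretches of 50 bases (the read length) in the transcripts of Ugt2b5, 41.1% were also found in the protein-coding transcripts of another gene, with Ugt2b38 the main partner (34.3%). For Ugt2b38 this share was 37.4%, for Ugt3a1 8.88% and for Ugt3a2 8.38%. It was 3.77% for Ugt2a3, 1.44% for Ugt2b34 and 0.285% for Ugt2b36, and Ugt2b1 and Ugt2b35 had no such stretch. The estimated count was not exactly whole, as deposited, in 55 mice for Ugt2b5, in 54 each for Ugt3a1 and Ugt3a2, in 48 for Ugt2b38, in 40 each for Ugt2a3 and Ugt2b34, in 25 for Ugt2b36, in 14 for Ugt2b35 and in 0 for Ugt2b1. The levels of Ugt2b5 and Ugt2b38, and those of Ugt3a1 and Ugt3a2, thus depend in part on how shared fragments were divided.

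**Figure D1:**
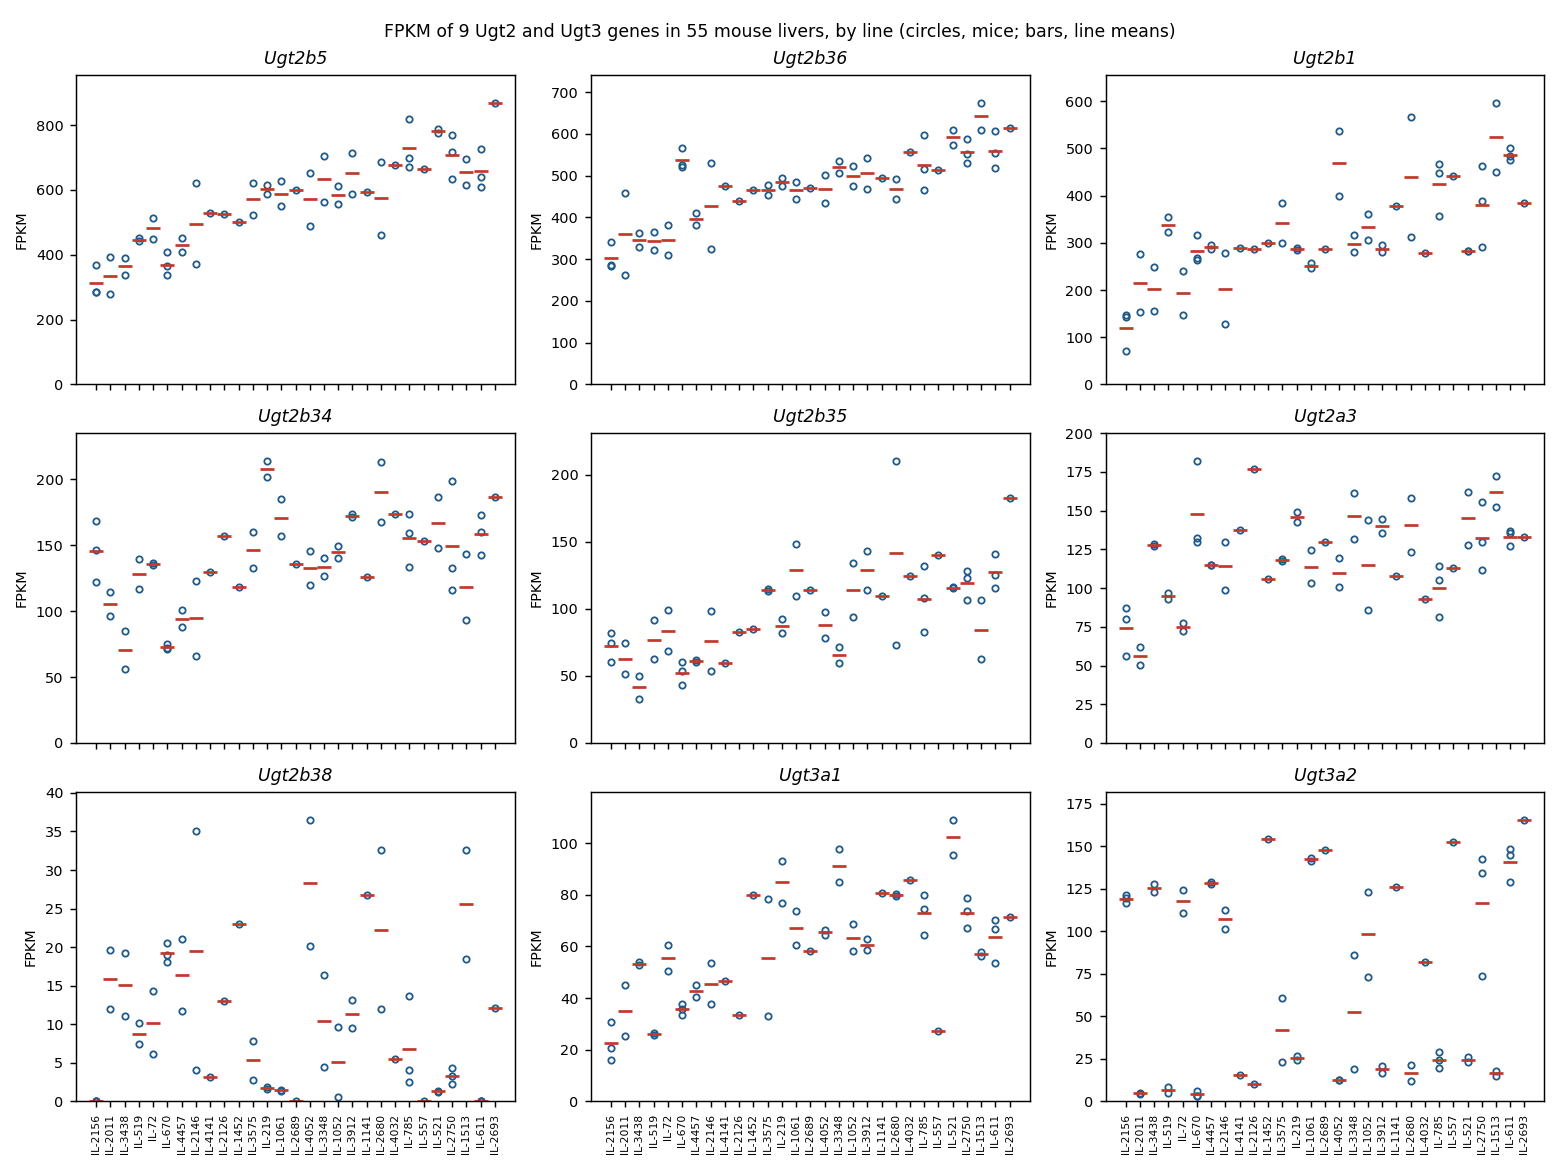
FPKM of the 9 members (vertical axes, linear, from 0) in 55 mice. Circles stand for mice and bars for line means, with the 29 lines along the horizontal axis in the same order in each panel, by the summed level of the members. IL-2156, at the left, had the lowest mean of Ugt2b5, Ugt2b36, Ugt2b1, Ugt2b38 and Ugt3a1, and Ugt3a2 fell into a low and a high set of mice.

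Most of the family's transcript came from Ugt2b5, Ugt2b36 and Ugt2b1. Ugt2b5 averaged 569 ± 132 FPKM (SD over 29 line means), Ugt2b36 477 ± 83.7 FPKM and Ugt2b1 320 ± 95.1 FPKM. Averaged over lines, these were 30.2%, 25.7% and 16.9% of the summed members. Ugt2b5 was the most abundant member in 47 mice and Ugt2b36 in the remaining 8. The smaller shares were those of Ugt2b34 (7.59%), Ugt2a3 (6.57%), Ugt2b35 (5.16%), Ugt3a2 (4.15%), Ugt3a1 (3.18%) and Ugt2b38 (0.596%). The summed level averaged 1873 ± 349 FPKM over lines. It was lowest in IL-2156, at 1170 ± 136 FPKM (SD, n = 3), and highest in IL-2693, at 2620 FPKM in its single mouse. IL-2156 was also the line with the lowest sum of hepatocyte markers (30168 FPKM). The part of this in the low levels of IL-2156 was not tested, and in bulk liver fewer cells of a type and less RNA per cell cannot be told apart.

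IL-2156 held the lowest line mean of 5 of the 9 members, tied at 0 with IL-557 and IL-2689 in Ugt2b38. The share of all genes lowest in IL-2156 was not computed, and several members are correlated, so that the count is a description only. For Ugt2b5, the 3 mice of IL-2156 were at 369, 285 and 284 FPKM, and the lowest single mouse of all, at 278 FPKM, belonged to IL-2011. At the other end IL-2693 had 869 FPKM in its single mouse and IL-521 had 777 and 789 FPKM, a range of line means of 2.78-fold. For Ugt2b36 the 3 mice of IL-2156 were at 283, 341 and 286 FPKM and the 2 mice of IL-1513, the highest line, at 674 and 609 FPKM. Ugt2b36 had the narrowest range of all members, 2.11-fold between the lowest and the highest line mean. For Ugt2b1, whose rat counterpart conjugates steroids and bisphenol A, the mice of IL-2156 were at 147, 142 and 70.2 FPKM, those of IL-1513 at 449 and 596 FPKM and those of IL-611 at 484, 474 and 501 FPKM. In these 3 genes the mice of IL-2156 did not overlap with those of the highest lines. Lines at the ends of a member were picked by these same values, so that their not overlapping is no test. When line means were put in order on the log2(FPKM + 1) scale, 1 of 252 steps between neighbouring lines was wider than 2 times the standard error from the spread within lines. This was the step from IL-2156 to IL-2146 in Ugt2b1. The mice of IL-2146 were at 128 and 278 FPKM, so that 1 of them lay within the range of IL-2156. By mean FPKM, IL-72 and IL-3438 ranked between these lines. Neighbours in the order of the other members were not separated by this rule.

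Ugt2b34 and Ugt2b35, in contrast, were lowest in IL-3438 and next lowest in IL-670. The 2 mice of IL-3438 had 55.9 and 84.6 FPKM of Ugt2b34 and 32.8 and 50.1 FPKM of Ugt2b35. The 3 mice of IL-670 had 71.7, 74.8 and 71.3 FPKM of Ugt2b34 and 43.4, 53.6 and 60.4 FPKM of Ugt2b35. Ugt2b34 was highest in IL-219, at 214 and 202 FPKM, and Ugt2b35 in IL-2693, at 183 FPKM. Both mice of IL-3438 were thus below those of the highest line in each gene, but these lines were picked by the same values. Over all lines, Ugt2b34 averaged 140 ± 33.1 FPKM and Ugt2b35 98.2 ± 32.2 FPKM (SD of 29 line means). Ugt2b35 also differed widely between line mates, with 73.2 and 210 FPKM in the 2 mice of IL-2680.

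Ugt2a3, whose human counterpart conjugates bile acids, averaged 121 ± 26.8 FPKM. Its lowest line was IL-2011, with mice at 50.5 and 62.2 FPKM, and its highest IL-2126, with 177 FPKM in a single mouse. The second highest line, IL-1513, had 153 and 172 FPKM, so that the lines at the 2 ends, picked by these values, did not overlap. IL-670, low in Ugt2b34, Ugt2b35 and Ugt3a2, was the third highest line in Ugt2a3 (148 FPKM, n = 3).

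Ugt2b38, the nearest relative of Ugt2b5, was the least abundant member (10.7 ± 8.95 FPKM over lines) and was near absent from some livers. In 8 mice it was at 0.03 FPKM or below, with an estimate of 0 in 6 of them, and in the other 47 mice it was at 0.61 FPKM or above. The 8 mice made up 4 whole lines: IL-2156 and IL-611 with 3 mice each, and IL-557 and IL-2689 with 1 each. A count of 0 allows up to 3 fragments, which is 0.122 CPM (counts scaled to a common library total) in the shallowest mouse of IL-2156, and this limit covers counting error only. In IL-4052, the highest line, Ugt2b38 averaged 51.6 CPM, at least 423-fold higher than that limit, and was at 36.5 and 20.1 FPKM. Ugt2b5 was not low in 3 of these 4 lines, with line means of 659 FPKM in IL-611, 666 FPKM in IL-557 and 599 FPKM in IL-2689, and Ugt2b1 averaged 486 FPKM in IL-611.

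Within lines, Ugt2b38 was the most uneven of the Ugt2 members. The mice of IL-2146 were at 4.03 and 35.0 FPKM, those of IL-785 at 13.7, 2.57 and 4.06 FPKM, and those of IL-1052 at 9.66 and 0.61 FPKM. Each of these lines held a mouse that stood out above by its whole profile or by Xist. In IL-785, however, the mouse with Xist was at 4.06 FPKM, between its line mates. The part of such mice in the spread was not tested. Among other lines, the mice of IL-2680 were at 12.0 and 32.6 FPKM, while those of IL-521 were at 1.27 and 1.34 FPKM. The pooled SD within lines, with all of these included, was 0.776 on the log2(FPKM + 1) scale, against 0.186 for Ugt2b36. Line mates of IL-2146 differed in the same direction in all 9 members, with Ugt2b5 at 371 and 622 FPKM and Ugt2b36 at 325 and 531 FPKM.

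**Figure D2:**
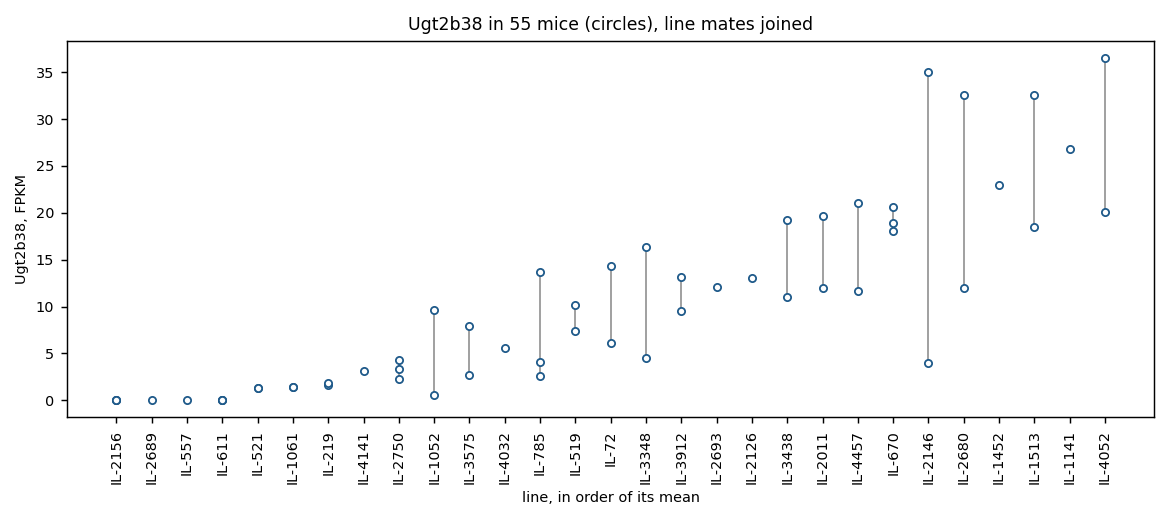
Ugt2b38 (vertical axis, FPKM, linear) in each of 55 mice (circles), with line mates joined and the 29 lines in order of their mean. The 4 lines at the left, IL-2156, IL-2689, IL-557 and IL-611, were at or near 0. Lines in the middle and at the right held line mates far apart. In IL-2146, whose second mouse was closest to IL-1141 by whole profile, they were at 4.03 and 35.0 FPKM.

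Ugt3a1 averaged 59.9 ± 20.8 FPKM. In IL-2156 its 3 mice were at 30.9, 16.0 and 20.7 FPKM and in IL-519 its 2 mice were at 25.8 and 26.6 FPKM. In IL-521, at the other end, they were at 95.4 and 109 FPKM, and in IL-3348 at 97.6 and 84.9 FPKM. The mice of these low and high lines, picked by the same values, did not overlap, and the line means spanned 4.54-fold. The study itself picked Ugt3a1 and Ugt3a2 in these mice for the association of their total expression with genotype. Differences of these genes among lines are thus not independent evidence. Among drug disposition genes, the study listed neither for an association of isoform share.

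Ugt3a2, its neighbour on the chromosome, did not vary gradually but fell into separate sets of mice. In 26 mice of 14 lines it was between 3.30 and 28.8 FPKM (median 16.3), in 29 mice of 17 lines it was between 60.8 and 166 FPKM (median 126), and no mouse lay between. The step of 2.11-fold between 28.8 and 60.8 FPKM was the widest between any neighbouring mice, and the next widest was 1.47-fold. Of the 21 lines with at least 2 mice, 19 had all mice on the same side. In IL-3348 and IL-3575, however, the line mates were on opposite sides, at 85.9 and 19.3 FPKM and at 23.3 and 60.8 FPKM. Whether line mates of these 2 lines carried the same alleles here was not tested, and the means of these lines average over both sides. The lowest line, IL-670, had 3.37, 3.30 and 5.97 FPKM. IL-2156, lowest in 5 other members, was among the high lines in Ugt3a2 (121, 120 and 116 FPKM). Mice at 60.8 to 85.9 FPKM were found in IL-3575, IL-1052, IL-2750, IL-4032 and IL-3348, below the remainder of the high set.

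The same mice separated by the isoform that was assigned to Ugt3a2. The annotation gives 3 isoforms. ENSMUST00000072403 is the full-length transcript of 2329 bases. ENSMUST00000058565, of 1353 bases, lacks the last exon of ENSMUST00000072403 (chr15:9299822-9300710, 889 bases), begins 63 bases later and lacks 23 bases at the end of the exon before (chr15:9297200-9297222) and leaves a single base, chr15:9291705, out of the fourth exon. ENSMUST00000144755, of 1722 bases, ends in a retained intron. In the 26 mice of the low set, ENSMUST00000058565 made up 24.6% to 65.1% of Ugt3a2 (median 48.0%). In the 29 mice of the high set it made up 0 to 0.77% (median 0.16%). Its own level was 1.03 to 15.4 FPKM in the low set and at most 1.08 FPKM in the high set, so that the isoform was lower in FPKM, not only as a share, where total Ugt3a2 was high. ENSMUST00000072403 was at 0.99 to 12.6 FPKM in the low set and at 59.1 to 162 FPKM in the high set.

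The line mates on opposite sides showed the same split. In IL-3348 the share of ENSMUST00000058565 was 0.11% in the mouse with 85.9 FPKM and 40.6% in the mouse with 19.3 FPKM. In IL-3575 it was 0.62% at 60.8 FPKM and 53.4% at 23.3 FPKM. These sets were read from the values and were not tested against each other. Fragments were assigned to annotated isoforms on the reference genome, and reads over the omitted base or the last exon were not examined. Whether sequence differences among the founder strains affected this assignment was not tested. The shares rest on 176 to 9806 fragments of Ugt3a2 per mouse, fewest in the mice with the lowest level.

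**Figure D3:**
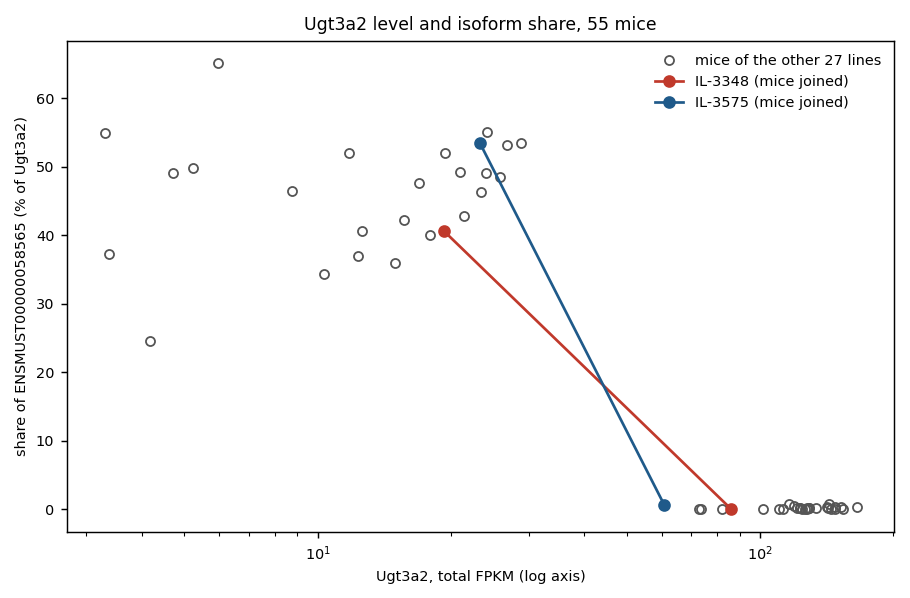
Share of ENSMUST00000058565 in Ugt3a2 (vertical axis, percent) against total Ugt3a2 (horizontal axis, FPKM, log axis) in 55 mice, each a circle. Mice at or below 28.8 FPKM had shares of 24.6% to 65.1%, mice at or above 60.8 FPKM had at most 0.77%, and the line mates of IL-3348 and IL-3575, joined by lines, were on opposite sides.

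The genome around the base that ENSMUST00000058565 leaves out is shown because the isoforms differ there within an exon that they otherwise share. The run covers chr15:9291645-9291765 of NCBI build 37, plus strand, with chr15:9291705 in capitals. The exon goes on for 32 bases after that base, and intron follows.
Ugt3a2 exon 4: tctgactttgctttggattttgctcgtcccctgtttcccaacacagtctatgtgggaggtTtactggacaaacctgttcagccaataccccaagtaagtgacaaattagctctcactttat

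Isoform shares of the other members varied less. Ugt2a3, Ugt2b1 and Ugt2b38 have 1 annotated isoform each, and in Ugt2b5 and Ugt2b34 the main isoform averaged 99.7% of the gene. Of the 21 isoforms of the members, 11 met the limits on expression and on distinct levels, and the share of 9 of these differed among lines (limma F test on arcsine square root shares in 47 mice of 21 lines, adjusted p below 0.05), beside 20.6% of all 21415 isoforms tested. The 2 protein-coding isoforms of Ugt3a2 gave the lowest values (adjusted p = 2.07e-07 for ENSMUST00000058565 and 1.69e-07 for ENSMUST00000072403, limma). The 9 belong to 4 genes, and shares within a gene sum to 100%, so these calls do not count separately.

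Ugt2b35 has 2 isoforms. ENSMUST00000166665 (3298 bases) has a last exon of 1556 bases, chr5:87440744-87442299, that ENSMUST00000031186 (1758 bases) does not have. The shorter isoform averaged 10.4% ± 5.26 (SD of 29 line means). Single mice ranged from 1.59% in IL-557, whose only mouse was not in the test, to 33.3% in IL-2146, whose other mouse had 9.98%. Over the lines tested, the limma adjusted p was 0.0295. In Ugt2b36, ENSMUST00000094649 averaged 87.5% and ENSMUST00000154455 8.25% over mice. IL-670 had the highest line mean of the first (94.9%) and the lowest of the second (3.83%), and IL-4032 the lowest of the first (82.6%) and the highest of the second (14.2%). IL-4032, a line of 1 mouse, was not in the test. The adjusted p of ENSMUST00000094649 was 0.0206 (limma), and without any 1 of the 3 mice of IL-670 it was between 0.0600 and 0.0665, so that this call rested on IL-670. For ENSMUST00000154455 the adjusted p was 0.0148. In Ugt3a1 the main isoform, ENSMUST00000022861, averaged 91.4% over mice. Its line means ranged from 84.7% in IL-1141 to 98.1% in IL-4141, lines of 1 mouse each that were not in the test. Over the lines tested, the limma adjusted p was 0.0323, and 0.0514 without mouse 2 of IL-2156.

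All 9 members differed among lines. In the edgeR quasi-likelihood test over the 21 lines with at least 2 mice, adjusted over 15285 genes, 9 of 9 members had an adjusted p below 0.05, beside 88.5% of all genes tested, so that the count says little about these genes. Ugt3a2 had the largest F value of the members (26.2, adjusted p = 1.44e-11), above 98.8% of all genes. Ugt3a1 (F = 9.39, adjusted p = 4.94e-07), Ugt2a3 (F = 8.77, adjusted p = 9.53e-07) and Ugt2b38 (F = 8.31, adjusted p = 2.72e-06) followed in the edgeR test. Ugt2b5, Ugt2b36, Ugt2b1 and Ugt2b34 had F values of 5.33 to 6.02, and Ugt2b35 the smallest (F = 3.65, edgeR adjusted p = 0.0013), above 41.4% of all genes. The 9 members also passed without IL-1052 and IL-2750 and without IL-2146.

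The intraclass correlation gives the share of variance between lines and was computed on rank-based normal scores, as a description. Its median over 5949 variable genes was 0.592 (quartiles 0.486 and 0.693), and 8 of 9 members were above that median. Ugt3a2 had 0.914 ± 0.0361 (jackknife SE over 55 mice) and Ugt3a1 0.808 ± 0.106. Next came Ugt2b1 (0.757 ± 0.0942), Ugt2b38 (0.698 ± 0.151), Ugt2b5 (0.687 ± 0.112), Ugt2b36 (0.674 ± 0.141), Ugt2a3 (0.607 ± 0.154), Ugt2b34 (0.598 ± 0.150) and Ugt2b35 (0.572 ± 0.201). The intervals of 1 SE overlap between any 2 Ugt2 members. For Ugt2b38 the value was 0.513 on untransformed FPKM, 0.779 on log2(FPKM + 1) and 0.726 on TPM.

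Line means of several Ugt2b genes were correlated. Over 29 line means, 8 of the 36 pairs of members (22.2%) had a Spearman rho of at least 0.5, beside 3.5% of all pairs of expressed genes, and 0 pairs had a rho of -0.5 or below, beside 0.623% of all pairs. Over the 21 lines with at least 2 mice the count was 14, of which 12 were positive and 2, both with Ugt2b38, were negative. In the 29 lines the median rho of the 36 pairs was 0.23. The 8 pairs came from 6 genes, which share lines, livers and, in part, fragments. Ugt3a2 and Ugt2b38, whose mice fall into separate sets, were in none of the 8 pairs, and no coefficient is given for them.

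**Figure D4:**
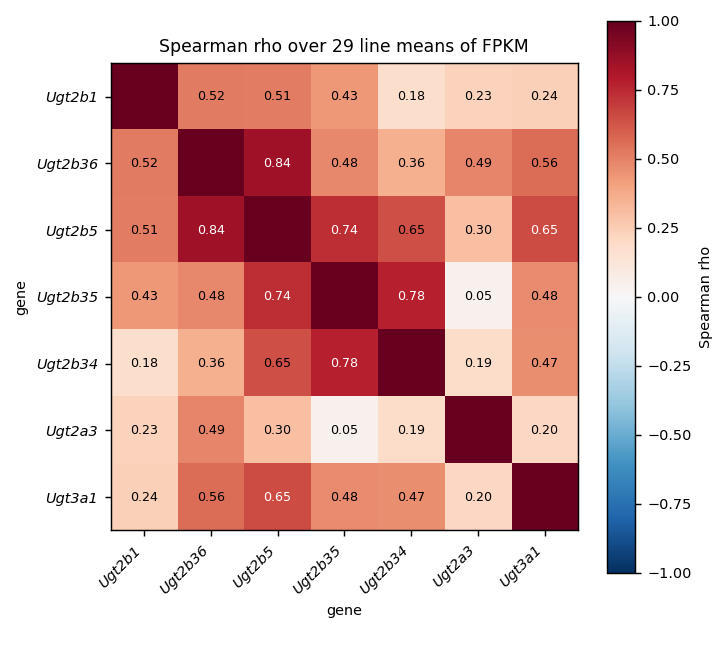
Spearman rho over 29 line means of FPKM for 7 members (both axes), with the value in each cell and colour from -1 to 1. Ugt2b5 was correlated with Ugt2b36 (0.84), Ugt2b35 (0.74), Ugt2b34 (0.65) and Ugt3a1 (0.65), and Ugt2a3 with none of the 6 others at 0.5 or above.

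The closest pair was Ugt2b5 and Ugt2b36, with a Pearson r of 0.82 on log2(FPKM + 1) and a Spearman rho of 0.84 (n = 29 lines, both two-sided permutation p = 1e-05, the smallest that 100000 permutations can give). Without IL-2011 and IL-2156, the lines farthest from the median of Ugt2b5, r was 0.75. With the line mean of Ugt2b5 as the covariate over all genes, the limma adjusted p for Ugt2b36 was 0.000815, and 0.363% of 11283 genes were called. With Ugt2b36 as the covariate, that for Ugt2b5 was 0.000364, and 0.23% of genes were called. IL-670 stood apart from this relation, with 369 FPKM of Ugt2b5 and 537 FPKM of Ugt2b36, and without it rho was 0.94. Transcripts of the 2 genes had 3 stretches of 50 bases in common.

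Ugt2b34 and Ugt2b35 were next (r = 0.80, rho = 0.78, both permutation p = 1e-05). Without IL-3438 and IL-670, the lines with the lowest levels, r was 0.69. The limma adjusted p with Ugt2b34 as the covariate was 0.00141, where 0.0177% of genes were called, and with Ugt2b35 as the covariate 0.00201, where 0.0266% were called. Ugt2b5 was related to Ugt2b35 (r = 0.78, rho = 0.74, both permutation p = 1e-05) and to Ugt2b34 (r = 0.67, permutation p = 0.0001, rho = 0.65, permutation p = 0.00017). For Ugt2b35 the limma adjusted p was 0.00205 with Ugt2b5 as the covariate and 0.003 with Ugt2b35 as the covariate. For Ugt2b34 it was 0.0301 with Ugt2b5 as the covariate and 0.102, no longer called, with Ugt2b34 as the covariate. Without IL-2011 and IL-2156 these values of r were 0.81 and 0.78. None of these pairs shares a stretch of 50 bases.

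**Figure D5:**
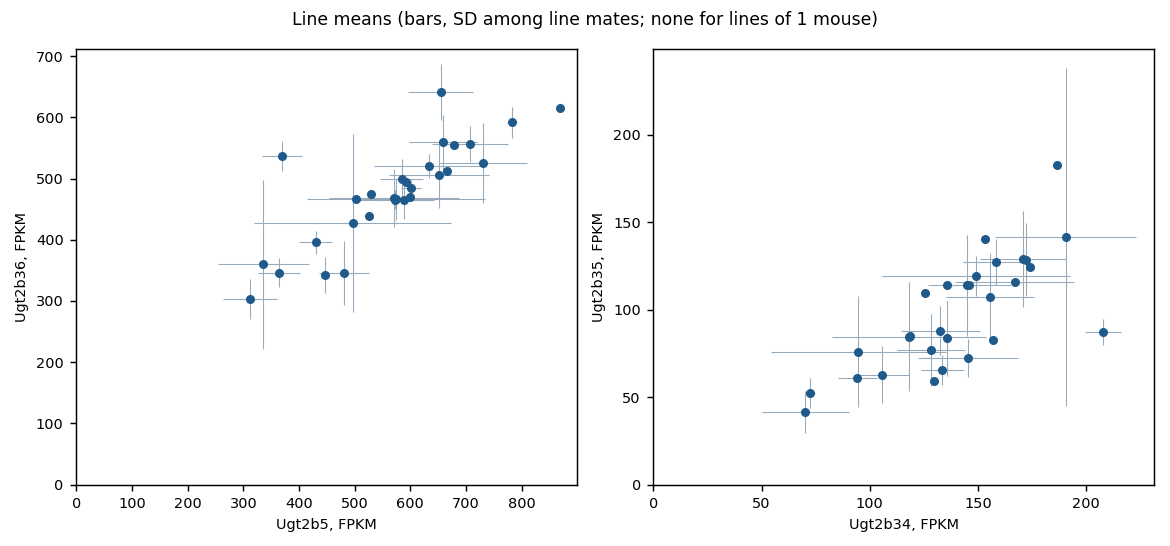
Line means in FPKM of Ugt2b36 against Ugt2b5 (left) and of Ugt2b35 against Ugt2b34 (right), all axes from 0, with each of 29 lines a point and bars the SD among line mates (none for lines with 1 mouse). The Spearman correlation was 0.84 at the left, where IL-670 lies above lines with similar Ugt2b5, at 369 and 537 FPKM, and 0.78 at the right.

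Ugt3a1, on another chromosome, was related to Ugt2b5 (r = 0.66, permutation p = 0.00011, rho = 0.65, permutation p = 0.00015), with r at 0.53 without IL-2011 and IL-2156. The limma adjusted p was 0.0301 with Ugt2b5 as the covariate and 0.0926, no longer called, with Ugt3a1 as the covariate, where 0% of genes were called. Its relation to Ugt2b36 had r = 0.59 (permutation p = 0.00073) and rho = 0.56 (permutation p = 0.0022). Without IL-2156 and IL-519, the lines farthest from the median of Ugt2b36, r fell to 0.39. Leaving out lines at an end narrows the range, which by itself can lower r, and rho was 0.506 to 0.618 without each line in turn. The limma adjusted p of this pair was 0.0893 with Ugt2b36 and 0.186 with Ugt3a1 as the covariate. Ugt2b1 had r = 0.70 (permutation p = 3e-05) and rho = 0.52 (permutation p = 0.0045) with Ugt2b36, and r = 0.66 (permutation p = 0.0001) and rho = 0.51 (permutation p = 0.0051) with Ugt2b5. Without IL-1513 and IL-2156 these values of r were 0.55 and 0.56. With Ugt2b1 as the covariate, 0.0266% of genes were called, and Ugt2b36 and Ugt2b5 had limma adjusted p of 0.0502 and 0.0637. The other way round, with Ugt2b36 or Ugt2b5 as the covariate, Ugt2b1 had limma adjusted p of 0.0188 and 0.0301. Of the 8 pairs, 3 were called with either gene as the covariate, 4 with 1 of the genes only and 1 with neither.

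Deviations of line mates were correlated in these pairs as well. When the 47 mice with a line mate were taken as deviations from their line means (26 degrees of freedom), rho was 0.71 for Ugt2b5 and Ugt2b36, 0.81 for Ugt2b5 and Ugt2b35 and 0.64 for Ugt2b34 and Ugt2b35. It was 0.42 for Ugt2b5 and Ugt3a1 and 0.39 for Ugt2b36 and Ugt3a1. These values are a description, since the deviations of line mates are not independent.

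Ugt2b5 and Ugt2b36 were the closest pair and Ugt2b38 is the nearest relative of Ugt2b5 at a far lower level, and their promoters were compared. RefSeq sequences from 250 bases before to 50 bases after the start site (GRCm38.p6) were matched by symbol for 8 of the 9 members, and Ugt3a2 had no entry. The promoters of Ugt2b5 and Ugt2b38 were 85.7% identical, those of Ugt2b36 and Ugt2b38 64.7%, and those of Ugt2b5 and Ugt2b36 63.0%. Other pairs were between 43.3% and 58.7% identical. The letters AGGTCA, the core of nuclear receptor sites, were found on either strand in 4 of 8 members (Ugt2b5, Ugt2b35, Ugt2b36 and Ugt2b38), beside 16.3% of 32851 promoters. In Ugt2b36 and Ugt2b38 they begin 25 bases before the start site, in Ugt2b5 22 bases before it and in Ugt2b35 215 bases before it. GTTAAT, part of the site of hepatocyte nuclear factor 1, was found in Ugt2a3 (2 copies) and Ugt3a1, beside 7.1% of promoters. TTCNNNGAA, the core of STAT sites, was in none of the 8, beside 8.3% of promoters. These matches describe the letters only.

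The 100 bases before the start site are shown for the 3 related promoters, with AGGTCA in capitals, and for Ugt2a3, with both copies of GTTAAT in capitals (all on the minus strand of chromosome 5, GRCm38.p6).
Ugt2b5, chr5:87140341-87140440: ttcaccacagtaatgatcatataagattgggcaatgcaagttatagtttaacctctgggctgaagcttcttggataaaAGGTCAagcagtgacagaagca
Ugt2b38, chr5:87424204-87424303: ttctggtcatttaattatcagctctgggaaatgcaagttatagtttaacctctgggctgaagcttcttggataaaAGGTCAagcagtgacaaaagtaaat
Ugt2b36, chr5:87092556-87092655: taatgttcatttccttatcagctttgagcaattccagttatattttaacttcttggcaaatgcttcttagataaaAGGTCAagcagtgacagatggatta
Ugt2a3, chr5:87337196-87337295: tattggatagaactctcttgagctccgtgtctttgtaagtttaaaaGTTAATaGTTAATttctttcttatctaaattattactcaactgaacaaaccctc

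Among all expressed genes outside the family, the 2 with the highest rho over the 29 line means were named for each member, as a description of likeness only. For Ugt2a3 these were Acat1 (rho = 0.78), the mitochondrial acetoacetyl-CoA thiolase, and Ndufs6 (0.73), a subunit of respiratory complex I. For Ugt2b36 they were Tax1bp1 (0.77), an autophagy receptor, and Upf3b (0.74), a factor of nonsense-mediated decay. Diap2 was first for both Ugt2b5 (0.82) and Ugt2b35 (0.77), at 2.21 FPKM on average. The second genes were C80913 (0.79) for Ugt2b5 and Hjurp (0.73), a histone chaperone of centromeres, for Ugt2b35. Ugt2b34 was closest to the kinase Gsk3b (0.78) and to Exoc5 (0.76), and Ugt3a1 to Tada2b (0.80) and 6330578E17Rik (0.74). For Ugt2b1 they were Guf1 (0.67), which lies on chromosome 5 as well (chr5:69948163-69967211), and the glucosylceramidase gene Gba2 (0.59). Ugt3a2 ranked first with 6030458C11Rik (chr15:12737932-12754412) and Pacsin2 (chr15:83206037-83295036), both on its own chromosome. Ugt2b38 ranked first with Serpina12 and Stxbp3b. No rho is given for Ugt3a2 and Ugt2b38, for the reason above.

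Body weight, age and depth varied from line to line, and the members were fitted against each of these over the 29 line means (limma over 11284 genes). No member was called for any of the 3, and the share of all genes called was 0% each time. At an unadjusted p below 0.05 there were also 0 members, beside 941 genes for body weight, 659 for age and 422 for depth. The lowest unadjusted p for body weight was 0.0779, that of Ugt2b36 (limma over 29 line means), with a slope of -0.02 ± 0.0109 (SE) log2 units per g. Without IL-1052 and IL-2750 there were 2 members at an unadjusted p below 0.05 for body weight, Ugt2b36 (0.0424, limma) and Ugt2b5 (0.0495, limma), with adjusted p of 0.587 and 0.604. The mean level of the markers of other liver cells was related to 6.61% of 11270 genes and to 0 of the 9 members, also at an unadjusted p below 0.05.

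Genes that work with these enzymes were compared by lists. Of 13 other Ugt genes, 12 were found and 10 tested, and 9 differed among lines (edgeR adjusted p below 0.05, with the background of 88.5% given above). Ugt1a2, at a median of 0.04 FPKM, was not called (edgeR adjusted p = 0.55). The highest intraclass correlation was that of Ugt1a10 (0.922) and the lowest that of Ugt1a7c (0.503). Ugt1a genes share exons, so that the division of their fragments is uncertain. Ugt2b37, another Ugt2b gene on chromosome 5, was at a median of 1.47 FPKM and reached 62.1 FPKM in 1 mouse (edgeR adjusted p = 2.92e-07). All 9 genes of UDP-glucuronic acid supply and glucuronide turnover differed among lines. Among them Ugdh, which makes UDP-glucuronic acid, had the highest intraclass correlation (0.742), with line means of 35.97 to 126 FPKM, and Ugp2, which makes its precursor UDP-glucose, the lowest (0.339). Of 12 transcription factors known for Ugt control, 11 differed among lines, and Foxa1 was not called (edgeR adjusted p = 0.312). The intraclass correlation was highest for Ahr (0.661), the receptor of dioxins and other aromatic compounds, and lowest for Nr1h4 (0.309), the bile acid receptor FXR. The intraclass correlation was computed for 8 of the 13, 8 of the 9 and 9 of the 12 genes of these lists, and its median over those genes was 0.668, 0.613 and 0.524, beside 0.592 over all variable genes.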

How the data were processed

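RNA-seq profiles came from 55 livers of 29 CC lines, and the strain label gave the line of a mouse. Libraries were made with a strand-specific mRNA kit, and the authors sequenced paired ends of 50 bases. Per the labels and methods, the authors aligned reads to the mouse genome (mm9) with Ensembl annotation using Bowtie 2 and quantified them with RSEM 1.2.18. The deposited expected counts are estimated fragments, not normalized, with fragments that match several genes or isoforms shared out. The deposited FPKM and TPM were computed by the authors in RSEM, per effective transcript length and per library. The deposited isoform shares give each isoform as a percent of its gene. Symbols were added to gene identifiers from a name table, and exons came from an Ensembl-based annotation of the same build, which may be of another release. RSEM divides fragments of near-identical genes by estimate, which adds error to Ugt2b5, Ugt2b38, Ugt3a1 and Ugt3a2.

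Differences among lines were tested by the quasi-likelihood F test of edgeR 4.0.16, after TMM scaling and filterByExpr. Estimates were first rounded to whole counts, and only the 21 lines with at least 2 mice (47 mice) entered. Isoform shares (genes with at least 2 isoforms and a maximum FPKM of at least 2, at least 12 distinct levels) and covariates of line means were tested with limma 3.58.1, on log2(FPKM + 1) for covariates, so that a slope understates changes of low genes. Adjusted p-values are Benjamini-Hochberg over all features tested, with a threshold of 0.05. DESeq2 1.42.0 was an alternative. Line mates are separate mice. No sequencing batch is named in the labels, so none was tested. The intraclass correlation used the one-way analysis of variance estimator on van der Waerden scores of rounded FPKM. Coding and promoter sequences were aligned globally with Biopython 1.88, with identity taken over the longer sequence. The tests and the estimator were tested on simulated data. Calculations used R 4.3.3, Python 3.11.15, numpy 2.4.6, scipy 1.17.1 and pandas 2.3.3.

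Alternatives changed the normalization, filter, unit, transformation, pseudocount, tool, lines and mice. The members, gene lists and tests were chosen with earlier results of these data known. The rule for named genes was all 9 members with their highest and lowest lines and isoforms of at least 5% mean share, the 2 most similar genes of each member and the genes of highest and lowest intraclass correlation in each list, and other lines, mice and isoforms named in the text were chosen after their values were seen. Leaving out IL-2146 was added after the data were seen. Ugt2a2 and 1 of 4 Kupffer cell markers were not found by symbol.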

Additional observations from a re-analysis of the deposited data

How the results depend on the processing

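The count of member pairs past a rho of 0.5 in either direction, 8 over all lines, was 14 over the 21 lines with at least 2 mice (12 positive and 2 negative), 8 to 11 under the other units and transformations, within lines and without IL-1052 and IL-2750, and 6 to 11 when each line was left out. The cause was not tested. The pairs of Ugt2b1 with Ugt2b36 and with Ugt2b5 fell below 0.5 when single lines were left out (lowest 0.463 and 0.456, both without IL-2156, the first also without IL-1513). All 9 members passed the test among lines under every alternative except the filter of at least 10 fragments in every mouse, which removed Ugt2b38 and left 8 of 8. The count of member isoforms called, 9, was 8 to 11 under other scales, filters and lines and 7 to 9 when each mouse of a line of 3 was left out, with 7 without any 1 mouse of IL-670. Fitting the limma relation with the other gene of a pair as the covariate, also chosen after seeing the data, lost 2 calls and gained 2. No member was called for body weight, age, depth or markers of other liver cells under any alternative, and at an unadjusted p below 0.05 there were 0 to 2. The median intraclass correlation of the members, 0.687, was 0.654 to 0.747 under other units, transformations and lines and 0.658 to 0.745 when each mouse was left out. Direction was compared only for the 8 pairs, in rho and in the limma slope, and none was reversed under the alternatives run. Leaving out IL-2146 was chosen after seeing the data and left 9 of 9 members and 9 isoforms called. The 8 lines with 1 mouse give no spread of their own, and Ugt2b38 at or near 0 and the isoform shares of the lowest Ugt3a2 mice rest on few fragments. No paired analysis was possible because the labels give no replicate numbers that link mice of different lines.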
